A study of Homo sapiens with 8 samples.

Results

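UNC5B, SLC29A3 and CDH23 are 3 neighbouring protein-coding genes on chromosome 10q22, of 20136 protein-coding genes annotated on the hg19 (GRCh37) chromosomes used. They were selected on measured H3K27ac values. The topologically associating domain (TAD) at chr10:73040001-73440000, which holds the 3′ end of UNC5B, all of SLC29A3 and much of CDH23, ranked 2 of 152 TADs with changed internal contacts by the log2 ratio of length under H3K27ac peaks between all-trans retinoic acid (ATRA) and control cells, at 4.13. The TADs ranked 1 and 3 were at 5.86 and 3.92, and the next TAD, chr10:73440001-73680000, which holds the 3′ part of CDH23, ranked 48 at 1.18. H3K27ac differences between ATRA and control are therefore given below as a description, without a test. H3K4me3 was not used for the choice. UNC5B (ENSG00000107731) lies at chr10:72972327-73062621, SLC29A3 (ENSG00000198246) at chr10:73079016-73141180 and CDH23 (ENSG00000107736) at chr10:73156677-73575704, each on the plus strand. The described window, chr10:72900001-73600000, also holds C10orf105 and VSIR, both on the minus strand inside CDH23, and the 3′ part of PSAP.

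The cells were HL-60, a human myeloid leukemia line that began from peripheral blood and differentiates toward granulocytes under ATRA, a ligand of the retinoic acid receptors. ATRA cells received 1 µM ATRA dissolved in ethanol for 4 days, and control cells received the same volume of ethanol. The trimethylation of histone H3 lysine 4 (H3K4me3) and the acetylation of lysine 27 (H3K27ac) were each profiled by ChIP-seq in 2 ATRA and 2 control libraries, which gives 8 libraries of 1 cell line. The replicate numbers do not say whether the ChIP cultures were separate, so p-values measure only the spread between these libraries. In a bulk culture, fewer cells with a mark and less of the mark per cell cannot be told apart.

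The deposited files were lists of broad peaks, with no read counts. The measure used throughout is therefore the length of a region under peaks, in bp, and a value of 0 means only that no peak was called, since the depth is unknown. H3K4me3 libraries held 13241 to 16487 peaks and H3K27ac libraries 15457 to 39332. The total length under H3K27ac peaks was 64.8 and 86.1 Mb in the ATRA libraries and 28.8 and 54.0 Mb in the control libraries, a ratio of the means of 1.82 that touches every H3K27ac value below. For H3K4me3 the same ratio was 1.17. As a check of the line, 5 of 8 myeloid genes had an H3K4me3 peak at the start in all 4 libraries, among them MPO, the granule peroxidase, and SPI1, the myeloid regulator PU.1. The neutrophil elastase gene ELANE had none in any library. Of 7 T or B cell genes only CD4 had one, and of 4 epithelial or liver genes none had.

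H3K4me3 marks active or poised gene starts, and H3K27ac marks active starts and enhancers. Broad, nearly unbroken runs of H3K27ac peaks often lie over genes that matter for the identity of a cell type. UNC5B encodes a receptor for the guidance cue netrin-1. SLC29A3 encodes the equilibrative nucleoside transporter ENT3 of lysosomes, and its inherited loss causes a histiocytosis. CDH23 encodes cadherin 23, a very long cadherin of the tip links between hair cell stereocilia in the inner ear. VSIR encodes VISTA, an inhibitory immune checkpoint protein of myeloid cells, PSAP encodes prosaposin, the precursor of the lysosomal saposins, and C10orf105 is an open reading frame without an established role.

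The gene starts differed in sequence as well as in their marks, and 5 of them are shown because the contrast between marked and unmarked starts rests on them. The sequences are RefSeq promoters (build GRCh38.p14), each from 250 bases before to 50 bases after a start, written 5′ to 3′ on the strand of the gene, with GRCh37 positions from an exact match. Capitals mark GGGCGG on either strand (which reads CCGCCC on the other), CCAAT on either strand, and TATAAA. UNC5B and PSAP had no entry. Further entries, for CDH23 at 73571640 (5 CpG dinucleotides) and C10orf105 at 73497607 (4 CpG and 1 CCAAT), are not shown. Neither of these had H3K4me3 in any library over its 300 bases. H3K27ac covered the C10orf105 one in both ATRA libraries and in no control library, and 52 bp of the CDH23 one in ATRA library 1 only.
SLC29A3, chr10:73078766-73079065, plus strand: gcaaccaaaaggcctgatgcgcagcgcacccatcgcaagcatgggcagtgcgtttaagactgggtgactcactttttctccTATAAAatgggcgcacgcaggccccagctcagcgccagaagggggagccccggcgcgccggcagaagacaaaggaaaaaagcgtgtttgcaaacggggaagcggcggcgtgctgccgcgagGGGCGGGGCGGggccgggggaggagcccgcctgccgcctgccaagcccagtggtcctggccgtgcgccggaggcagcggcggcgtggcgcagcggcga
CDH23 first start, chr10:73156427-73156726, plus strand: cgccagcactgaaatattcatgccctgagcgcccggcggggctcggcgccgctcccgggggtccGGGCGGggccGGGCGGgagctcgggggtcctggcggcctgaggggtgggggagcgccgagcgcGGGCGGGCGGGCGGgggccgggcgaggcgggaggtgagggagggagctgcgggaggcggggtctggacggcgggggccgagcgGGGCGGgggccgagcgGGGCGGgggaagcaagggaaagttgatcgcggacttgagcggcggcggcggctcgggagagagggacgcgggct
CDH23 short transcripts, chr10:73555278-73555577, plus strand: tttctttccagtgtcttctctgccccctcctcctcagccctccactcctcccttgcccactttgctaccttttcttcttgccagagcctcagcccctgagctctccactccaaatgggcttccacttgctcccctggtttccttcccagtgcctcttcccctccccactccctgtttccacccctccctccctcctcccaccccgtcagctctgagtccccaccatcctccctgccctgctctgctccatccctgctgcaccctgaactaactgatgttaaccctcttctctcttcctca
C10orf105 canonical start, chr10:73479486-73479785, minus strand: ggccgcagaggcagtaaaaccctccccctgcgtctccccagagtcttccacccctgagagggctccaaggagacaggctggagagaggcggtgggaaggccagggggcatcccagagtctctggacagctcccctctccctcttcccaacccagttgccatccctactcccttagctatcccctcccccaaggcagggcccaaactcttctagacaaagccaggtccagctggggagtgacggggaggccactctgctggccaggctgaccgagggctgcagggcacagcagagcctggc
VSIR, chr10:73533228-73533527, minus strand: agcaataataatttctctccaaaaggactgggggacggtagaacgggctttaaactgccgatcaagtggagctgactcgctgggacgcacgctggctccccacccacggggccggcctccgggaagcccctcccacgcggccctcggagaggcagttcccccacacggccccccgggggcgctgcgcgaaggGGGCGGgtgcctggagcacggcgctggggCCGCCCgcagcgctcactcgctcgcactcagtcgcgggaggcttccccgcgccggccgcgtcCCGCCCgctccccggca

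The SLC29A3 sequence held 32 CpG dinucleotides and was 68.7% G or C, with 2 overlapping GGGCGG matches and 1 TATAAA. The first CDH23 start held 43 CpG, was 80.0% G or C and had 7 GGGCGG matches, some of them overlapping. VSIR held 35 CpG and 3 GGGCGG matches. By contrast, the start of the short CDH23 transcripts held 1 CpG and the canonical C10orf105 start 5, and neither matched any of the motifs. Over 22199 promoters of protein-coding genes of the same length, the median was 21 CpG with quartiles of 7 and 31, and 56.3% held GGGCGG, 34.7% CCAAT and 9.47% TATAAA. The most CpG-rich of the 5 starts, that of CDH23, was the one with neither mark within 2 kb in any of the 8 libraries.

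None of the sequences held a direct repeat of the retinoic acid receptor half-site spaced by 1, 2 or 5 bases (DR1, DR2 and DR5, with A or G in the first and G or T in the third place of the half-site), nor the PU.1 core GAGGAAGT. These are rare in windows of this length: 0.131% of promoters held a DR1, 0.0360% a DR2, 0.0766% a DR5 and 2.64% the PU.1 core.

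Across the window, the 8 libraries had 175 peaks. H3K27ac was called in 53 and 44 peaks in the ATRA libraries and in 30 and 21 in the control libraries. The length under these peaks was 193621 bp in ATRA library 1, 142534 bp in ATRA library 2, 61007 bp in control library 1 and 49620 bp in control library 2, so both ATRA libraries were above both control libraries. The means were 168078 ± 36124 and 55313.5 ± 8052 bp (SD, n = 2), a difference of 112764 bp and a ratio of 3.04. Scaled to the mean covered length of the 4 libraries, the difference was 46826 bp and ATRA library 2, at 96680 bp, was below control library 1, at 123794 bp. With peaks of a −log10 q of at least 5 only, the difference was 20105 bp. The deposited −log10 q correlated more with that of the next peak in the file than with the peak's own length. This filter is therefore not shown, here or below, to keep the strongest peaks.

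**Figure D1:**
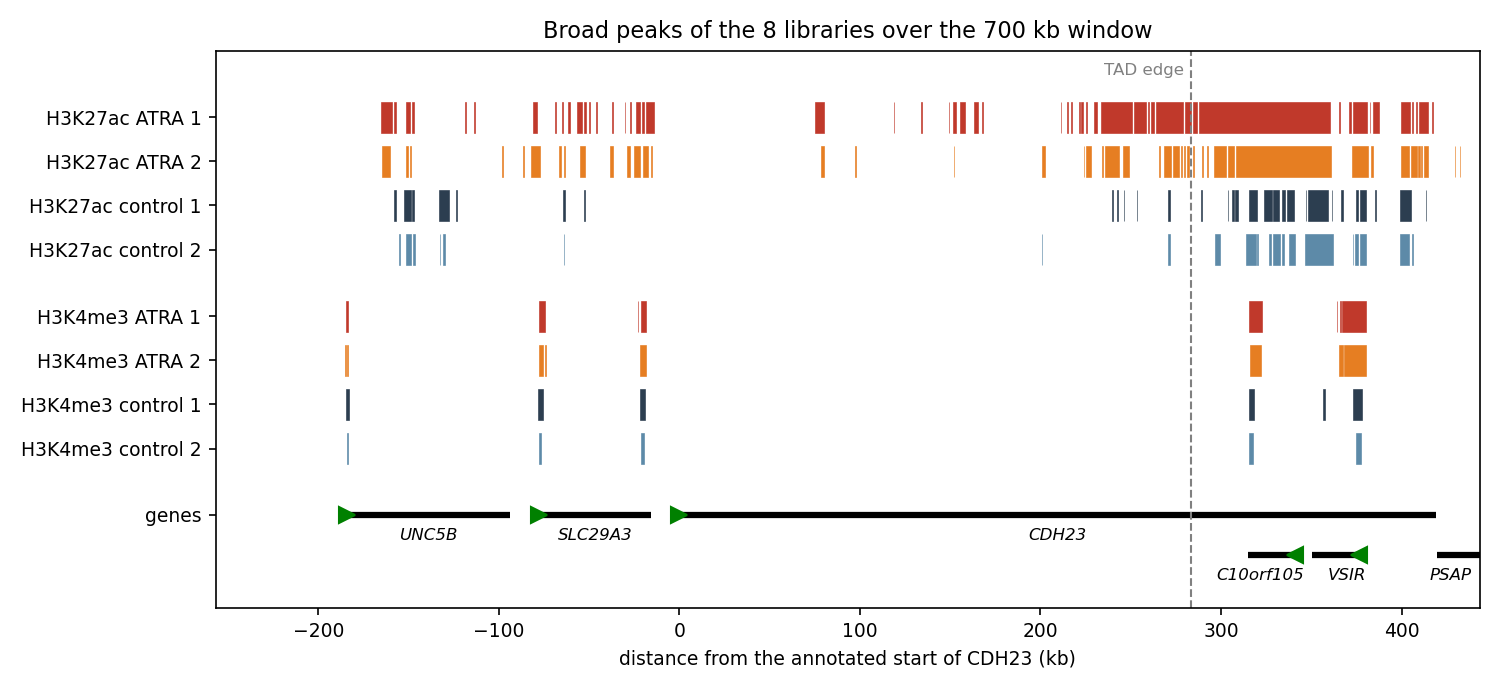
Broad peaks of the 8 libraries over the 700 kb window, as colored blocks against the distance from the annotated start of CDH23 in kb, 1 row per library, with genes as black bars, gene starts as green arrowheads and the TAD edge as a dashed line. The long ATRA H3K27ac blocks of 72917 and 52825 bp lie over the 3′ part of CDH23 and C10orf105, while H3K4me3 peaks are few and mostly lie at the same places in all 4 libraries.

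In 20 kb bins, 28 of the 35 bins of the window held an H3K27ac peak in at least 1 library. Of these, 18 were higher in both ATRA than in both control libraries, against 30.1% of all such bins of the genome, and 2 were lower, against 4.5%. The rule used this contrast, so nothing is read from these counts. The 2 lower bins were neighbours, at chr10:73000001-73040000 inside UNC5B. In the first of them the values were 3226 and 1400 bp in ATRA and 4958 and 4115 bp in control, and in the other 582 and 0 bp in ATRA and 5771 and 1851 bp in control. Between 73160001 and 73220000, in the 5′ part of CDH23, no library had a peak of either mark.

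**Figure D2:**
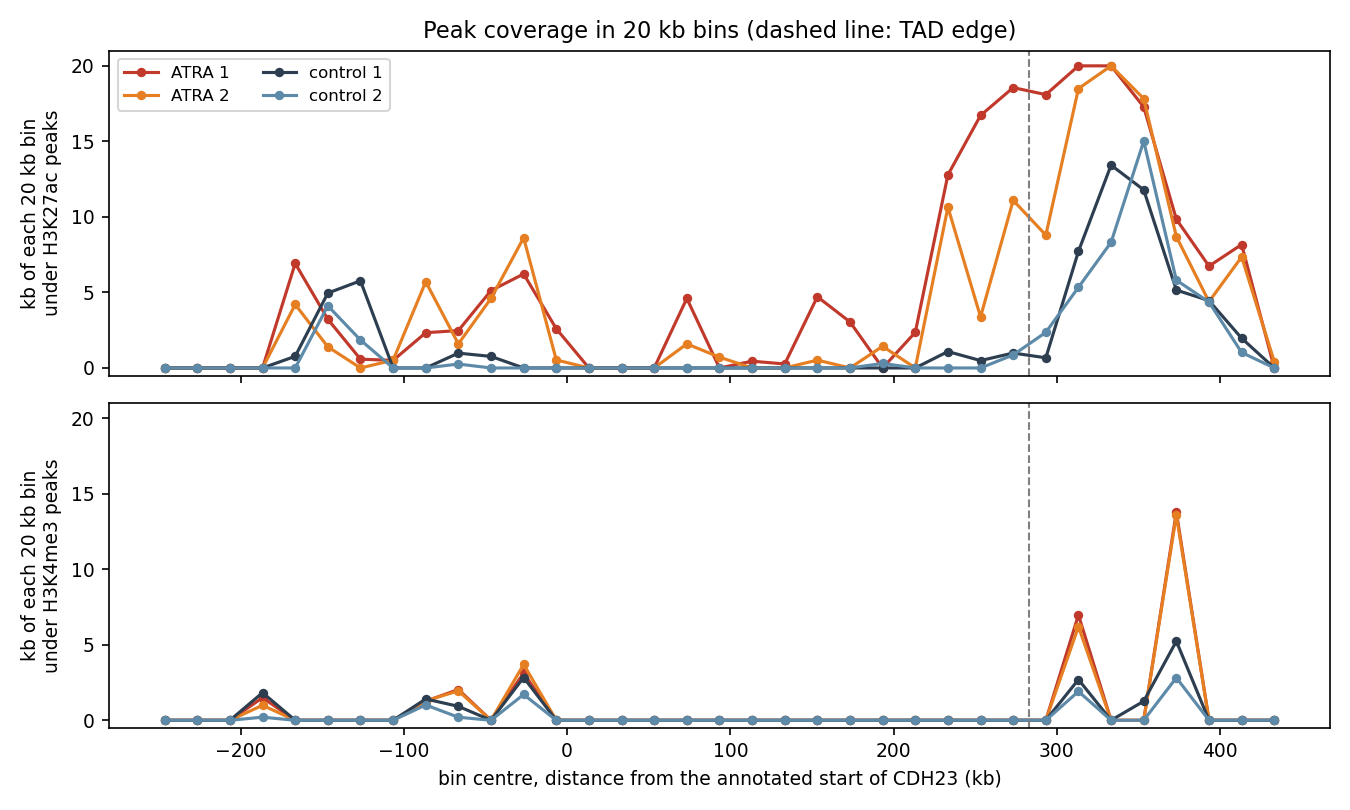
Length under peaks, in kb of each 20 kb bin, against the distance of the bin centre from the annotated start of CDH23 in kb, for H3K27ac (top) and H3K4me3 (bottom), 1 line per library, with the TAD edge dashed. From about 233 to 333 kb the ATRA H3K27ac lines are above both control lines and reach the full bin in both ATRA libraries at 333 kb, whereas at -147 and -127 kb, inside UNC5B, both ATRA lines are below both control lines.

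Base by base, 51 stretches with 67612 bp, 9.66% of the window, lay under H3K27ac peaks of both ATRA libraries and of no control library. The opposite pattern, both control libraries and no ATRA library, was found in 5 stretches with 3009 bp. Another 14 stretches with 33360 bp lay under peaks of all 4 libraries. A single ATRA library covered 86926 bp more, which was not shared by the other replicate. A stretch ends wherever a control peak or a gap in either ATRA library begins, so the number of stretches does not count separate gains. The longest had 5981 bp, at chr10:73497476-73503456.

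SLC29A3 had the clearest contrast of the 3 genes. Its gene body of 62165 bp had 15004 and 15632 bp under H3K27ac peaks in the ATRA libraries, in 13 and 9 peaks. The control libraries had 1748 bp in 2 peaks and 260 bp in 1 peak. The means were 15318 ± 444 and 1004 ± 1052 bp (SD, n = 2), a difference of 14314 bp. Both ATRA libraries were above both control libraries here, as in 23.6% of all protein-coding genes, and the difference ranked 266 of 20136 genes. That share counts genes without any peak, and 12986 of the 20136 had an H3K27ac peak in the body. With a −log10 q of at least 5 the ATRA values were 15004 and 192 bp and both control values 0, so 1 ATRA library then carried the difference of 7598 bp. Scaled to the mean covered length, the groups stayed apart, with 13523 and 10603 bp in ATRA and 3547 and 282 bp in control.

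**Figure D3:**
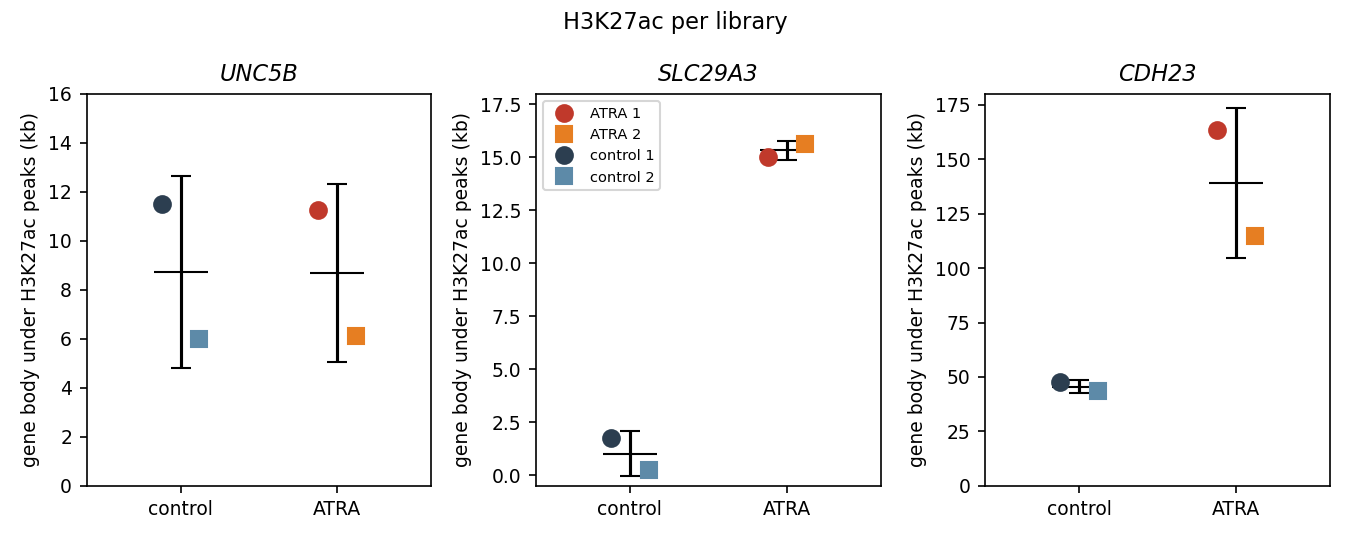
Length of each gene body under H3K27ac peaks, in kb, for the 2 control and 2 ATRA libraries, with circles for replicate 1, squares for replicate 2, and black lines for the mean and SD (n = 2). UNC5B shows the same levels in both conditions, whereas both ATRA points lie above both control points for SLC29A3 (15004 and 15632 bp) and CDH23.

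The longer stretches gained at SLC29A3 lay in 3 places. Upstream of the start, chr10:73075531-73077863 (2333 bp, between UNC5B and SLC29A3) lay under peaks of both ATRA libraries and of neither control library. In intron 2 of the canonical transcript, 1233 bp at chr10:73101426-73102658 showed the same pattern. Shorter stretches of 31 bp in intron 2, 51 bp in intron 3 and 307 bp in intron 5 also did. Those of 31 and 51 bp are the 2 flanks of a peak of control library 1, at chr10:73103715-73104479. The third place lay beyond the canonical transcript, which ends at 73123142, in introns of longer transcripts that end at 73141180. Of the H3K27ac in the gene body, this distal part held 7403 and 8696 bp in ATRA and 0 bp in both control libraries. Within the canonical transcript alone the values were 7601, 6936, 1748 and 260 bp, in the order ATRA 1, ATRA 2, control 1 and control 2, a difference of 6264.5 bp.

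The distal part of SLC29A3 also held an H3K4me3 peak in every library, far from any annotated start. The stretch shared by all 4 libraries was chr10:73135549-73137256 (1708 bp), 11549 bp from the nearest annotated start. H3K27ac peaks of both ATRA libraries covered 2271 bp just before it (chr10:73132453-73134723), 713 bp within it (chr10:73136354-73137066) and 1515 bp just after it (chr10:73137920-73139434). No control library had an H3K27ac peak between 73120001 and 73160000. H3K4me3 peaks covered 3124 and 3699 bp of the distal part in ATRA and 2832 and 1708 bp in control. The place thus carried H3K4me3 peaks in both conditions, with more length in both ATRA libraries, and H3K27ac peaks in the ATRA libraries only.

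UNC5B had nearly the same length under H3K27ac peaks in both conditions. Its body of 90295 bp had 11232 and 6117 bp under peaks in ATRA and 11499 and 5966 bp in control, so the groups overlapped fully. The difference of the means was -58 bp, which is small beside the SDs of 3617 and 3912 bp (n = 2). Scaled to the mean covered length it was -7761 bp, with 10123 and 4149 bp in ATRA and 23334 and 6461 bp in control, and the groups still overlapped. The numbers of peaks were 6 and 4 in ATRA and 5 and 5 in control. Every stretch named next lay in intron 1 of the 17-exon canonical transcript.

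Within intron 1 the peaks lay partly at different places in the 2 conditions. At chr10:72991952-72996154, 4203 bp lay under peaks of both ATRA libraries (6068 and 4203 bp long) and of no control library. Further 3′, 3 stretches lay under peaks of both control libraries and of no ATRA library, namely chr10:73009755-73009960 (206 bp), chr10:73024046-73024320 (275 bp) and chr10:73025481-73027056 (1576 bp), 2057 bp in all. Between the gained stretch and these, chr10:73005503-73006341 (839 bp) and chr10:73007560-73007670 (111 bp) were shared by all 4 libraries. The control-only stretch of 206 bp directly follows a peak of ATRA library 1 (chr10:73008856-73009754). Those of 275 and 1576 bp lie within a single peak of control library 1 (chr10:73023720-73028883). No library had an H3K27ac peak within 2 kb of the UNC5B start.

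CDH23 had the largest length gained of the 3 genes. Of its 419028 bp, 163635 and 114936 bp lay under H3K27ac peaks in ATRA and 47760 and 43394 bp in control. The means were 139286 ± 34435 and 45577 ± 3087 bp (SD, n = 2), a difference of 93708.5 bp that ranked 4 of 20136 genes, and a ratio of 3.06. As a share of the gene body the values were 39.1% and 27.4% in ATRA and 11.4% and 10.4% in control. Scaled to the mean covered length, the difference was 40765 bp and the groups overlapped, with 147480 and 77961 bp in ATRA and 96914 and 46996 bp in control. With a −log10 q of at least 5, ATRA had 10660 and 14707 bp and control 3065 and 0 bp.

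The gain in CDH23 was uneven along the gene. Before the TAD edge at 73440001, over 283324 bp, the ATRA libraries had 63498 and 29385 bp and the control libraries 2565 and 1162 bp. After the edge, over 135704 bp, the values were 100137 and 85551 bp in ATRA and 45195 and 42232 bp in control. The differences were 44578 bp before and 49130.5 bp after the edge. In control cells, 33.3% and 31.1% of the part after the edge lay under H3K27ac peaks, against 0.905% and 0.410% of the part before it.

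Of the 40 CDH23 stretches under peaks of both ATRA and no control library, 27 lay wholly within introns of the 70-exon canonical transcript. The 5 longest were 5981 bp at chr10:73497476-73503456, 4436 bp at chr10:73466353-73470788, 3651 bp at chr10:73392624-73396274 in intron 11, 3649 bp at chr10:73455940-73459588 in intron 22 and 3575 bp at chr10:73430005-73433579 in intron 14. The 2 longest were parts of single ATRA peaks, one of 72917 bp in library 1 (chr10:73444366-73517282) and one of 52825 bp in library 2 (chr10:73465004-73517828). Each was the peak of length rank 2 in its library. The longest peaks of the window in the control libraries were 10913 and 15017 bp and lay over the 3′ part of VSIR.

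In the other direction, the start of the short CDH23 transcripts at 73555528 had 1092 and 1026 bp of H3K27ac within 2 kb in ATRA and 1607 and 1890 bp in control. A stretch of 515 bp at chr10:73555922-73556436 lay under peaks of both control libraries only. The 4235 bp next to it, chr10:73556503-73560737, were shared by all 4 libraries.

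C10orf105 and VSIR lie inside CDH23, and peaks there cannot be assigned to 1 gene. The C10orf105 span of 26124 bp was wholly under a peak in both ATRA libraries and held 18082 and 12989 bp in control. For VSIR the values were 15304 and 14311 bp in ATRA and 11273 and 13628 bp in control, with all 4 libraries sharing a run of 10913 bp at chr10:73505111-73516023. Without the spans of both genes, CDH23 still had 122207 and 74501 bp in ATRA against 18405 and 16777 bp in control, a difference of 80763 bp. PSAP, downstream, had 0 and 2554 bp in its body in ATRA and 0 and 473 bp in control. Within 2 kb of its start, which lies outside the window, H3K27ac was 1677 and 4001 bp in ATRA and 339 and 1208 bp in control. Both ATRA values were above both control values there, as at 17.9% of all gene starts.

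H3K4me3 tests the starts with a mark that did not enter the choice. Within 2 kb of the UNC5B start, 1497 and 992 bp lay under H3K4me3 peaks in ATRA and 1827 and 205 bp in control. The groups overlapped, with a difference of 228.5 bp (exact two-sided permutation test, p = 1.0, n = 2 per group). At the SLC29A3 start the values were 2281 and 2296 bp in ATRA and 2333 and 1215 bp in control, a difference of 514.5 bp (exact two-sided permutation test, p = 1.0). That difference rested on control library 2, without which it was -44.5 bp. The first CDH23 start had 0 bp in all 4 libraries. With 2 libraries against 2, no exact two-sided p can be below 0.333.

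**Figure D4:**
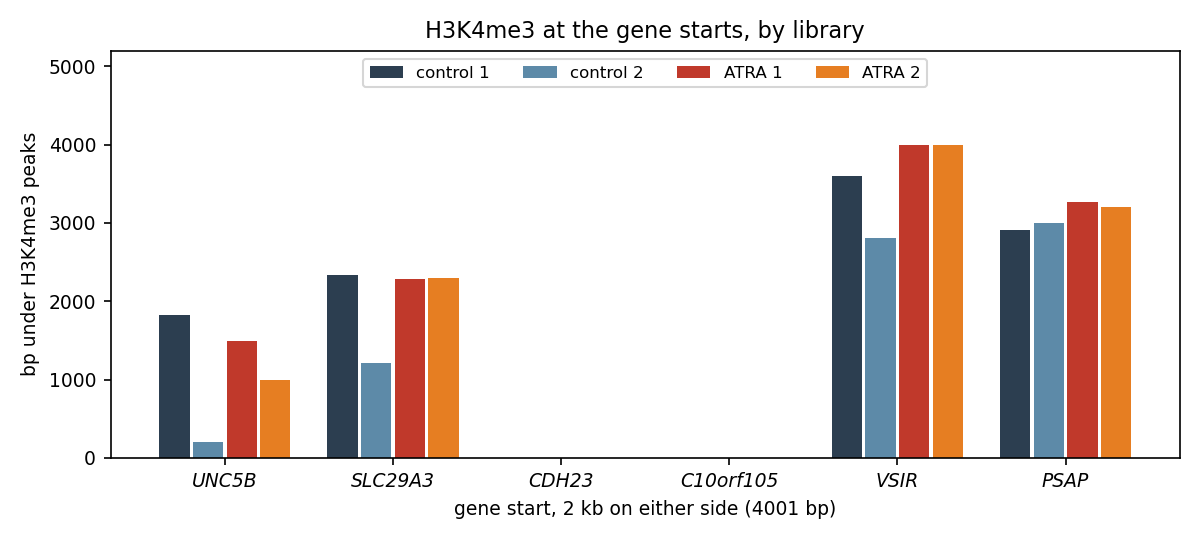
Length under H3K4me3 peaks, in bp, in the 4001 bp around each gene start, 1 bar per library. UNC5B and SLC29A3 have peaks in all 4 libraries with overlapping groups, CDH23 and C10orf105 have none at the starts drawn, and both ATRA bars exceed both control bars at VSIR and PSAP.

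None of the 3 members had a first start with H3K4me3 higher or lower in both ATRA than in both control libraries, against 11.3% higher and 2.42% lower of all protein-coding genes. Of these 20136 genes, 11077 had an H3K4me3 peak at the start. The neighbours VSIR (4001 and 4001 bp in ATRA, 3597 and 2808 bp in control) and PSAP (3268 and 3209 bp, 2911 and 3005 bp) were higher in both, each with an exact two-sided permutation p = 0.333. At the SLC29A3 start, H3K27ac was 848 and 2620 bp in ATRA and 0 bp in both control libraries, a pattern of higher values shared by 17.9% of all genes. SLC29A3 was the only member with H3K27ac within 2 kb of its first start in any library. Of its further starts, that at 73111445 had no H3K4me3 peak within 2 kb in any library. At 73082581, H3K4me3 was 1457 and 1368 bp in ATRA and 343 and 0 bp in control (exact two-sided permutation test, p = 0.333). In ATRA library 1 and control library 1 that length was the end of the peak over the first start, which stopped short of 73082581. ATRA library 2 alone had a separate peak, of 940 bp, over this further start.

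Within CDH23, H3K4me3 lay only after the TAD edge. The gene body had 20749 and 19782 bp under H3K4me3 peaks in ATRA and 9195 and 4727 bp in control, a difference of 13304.5 bp (exact two-sided permutation test, p = 0.333, the smallest possible). SLC29A3 had 6146 and 6632 bp in ATRA and 4740 and 2895 bp in control, with the same p. UNC5B had 1042 and 514 bp in ATRA and 1325 and 205 bp in control, so its groups overlapped. Values higher in both ATRA than in both control libraries were found in 23.4% of all gene bodies.

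The H3K4me3 peaks of CDH23 lay at 2 places, the start at 73472361 and the VSIR gene. Around the former, the start of a short CDH23 transcript that lies just inside C10orf105, the values within 2 kb were 2152 and 1574 bp in ATRA and 2050 and 1910 bp in control, so the groups overlapped. From there the ATRA peaks ran on for 6970 and 6202 bp, against 2696 and 1910 bp for the control peaks. They ended at 73479179 and 73478989, short of the canonical C10orf105 start at 73479535, and within 2 kb of that start 1645 and 1455 bp lay under peaks in ATRA and 0 bp in control. At VSIR the peak over the start was 13212 and 11725 bp long in ATRA and 5237 and 2817 bp in control, and the added length lay mostly within the VSIR gene, 3′ of its start. Near a further VSIR start at 73521701, peaks of 268 and 299 bp in ATRA library 1 and 1855 bp in ATRA library 2 had no counterpart in control. Further 3′ in VSIR, control library 1 alone had a peak of 1262 bp, at chr10:73513083-73514344. H3K27ac at the 73472361 start was 4001 and 4001 bp in ATRA and 2125 and 3573 bp in control.

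Over the whole window, H3K4me3 covered 28672 and 27709 bp in ATRA and 16187 and 7855 bp in control, a difference of 16169.5 bp (exact two-sided permutation test, p = 0.333). In 20 kb bins, 4 of 7 bins with an H3K4me3 peak were higher in both ATRA libraries and 0 were lower. The genome-wide share of higher bins was 34.3%. Of the H3K4me3 stretches, 7 with 11558 bp lay under both ATRA and no control library, and 0 showed the opposite pattern.

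Retinoid and myeloid motifs were searched in the 51 stretches under H3K27ac peaks of both ATRA and no control library. These 67612 bp held 0 DR1, 0 DR5 and 3 PU.1 cores on either strand. Per 10 kb, that was 0.444 PU.1 cores, against 0.797 in the 872 such stretches of chromosome 10, which include those of the window. Those 872 stretches, of 866153 bp, held only 2 DR1 and 5 DR5, so nothing is read from the 0 in the window. The PU.1 matches of the window are shown with 20 bases on either side, 5′ to 3′ on the strand of the match and with the motif in capitals. A match is a string of letters and not a site.
PU.1 core in SLC29A3, chr10:73138583-73138630, minus strand: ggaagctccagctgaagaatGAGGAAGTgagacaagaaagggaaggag
PU.1 core in CDH23, chr10:73397923-73397970, plus strand: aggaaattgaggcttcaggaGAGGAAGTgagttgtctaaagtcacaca
PU.1 core in CDH23, chr10:73404673-73404720, plus strand: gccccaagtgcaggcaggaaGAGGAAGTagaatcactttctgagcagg

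The PU.1 core of SLC29A3 lay in the stretch of 1515 bp just after the distal H3K4me3 stretch shared by all 4 libraries. The other PU.1 cores lay in stretches of 2230 and 2524 bp before the TAD edge.

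Genes related to the members by role were counted in 3 lists. Of 13 netrin pathway genes, 7 had H3K27ac in the body in any library, and 1 was higher and 1 lower in both ATRA than in both control libraries. The share over all genes was 23.6% higher and 3.21% lower. NEO1, the netrin and RGM receptor neogenin, had 1474 and 2380 bp in ATRA and 0 bp in both control libraries. The netrin gene NTN3 had 0 bp in both ATRA libraries and 316 and 749 bp in control. FLRT2, a ligand of UNC5 receptors, had 0 and 608 bp in ATRA and 0 and 1983 bp in control. At the starts, 5 of the 13 genes had H3K4me3, and NEO1 was higher (3421 and 4001 bp against 3099 and 3099 bp). Over all genes, 11.3% of starts were higher and 2.42% lower in H3K4me3, for comparison with each of the 3 lists.

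Of 6 other nucleoside transporter genes, 3 had H3K27ac in the body, 2 higher and 1 lower. SLC28A3, which encodes the concentrative transporter CNT3, had 9941 and 21871 bp in ATRA and 0 and 4241 bp in control. SLC29A1, the plasma membrane transporter ENT1, had 9090 and 8172 bp in ATRA and 4360 and 6416 bp in control. SLC29A2, which encodes ENT2, was lower, with 1912 and 1929 bp in ATRA and 2401 and 2093 bp in control. The H3K4me3 of its start was higher, with 3673 and 3657 bp against 3434 and 3498 bp, the only such start among 2 with the mark.

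Of 9 tip link and Usher syndrome genes, 5 had H3K27ac in the body and 1 was higher. That was USH1G, a scaffold protein of hair cells, with 383 and 881 bp in ATRA and 0 bp in both control libraries. WHRN, the scaffold whirlin, had 6810 bp in ATRA library 1 and 0 bp in the others. ADGRV1, an adhesion receptor, had 1759 and 6191 bp in ATRA and 66 and 2118 bp in control, so its groups overlapped. At the starts, 3 of the 9 genes had H3K4me3, and 0 of them were higher or lower. The median difference of H3K27ac was 0 bp in each of the 3 lists, as it was over all 20136 genes.

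**Figure D5:**
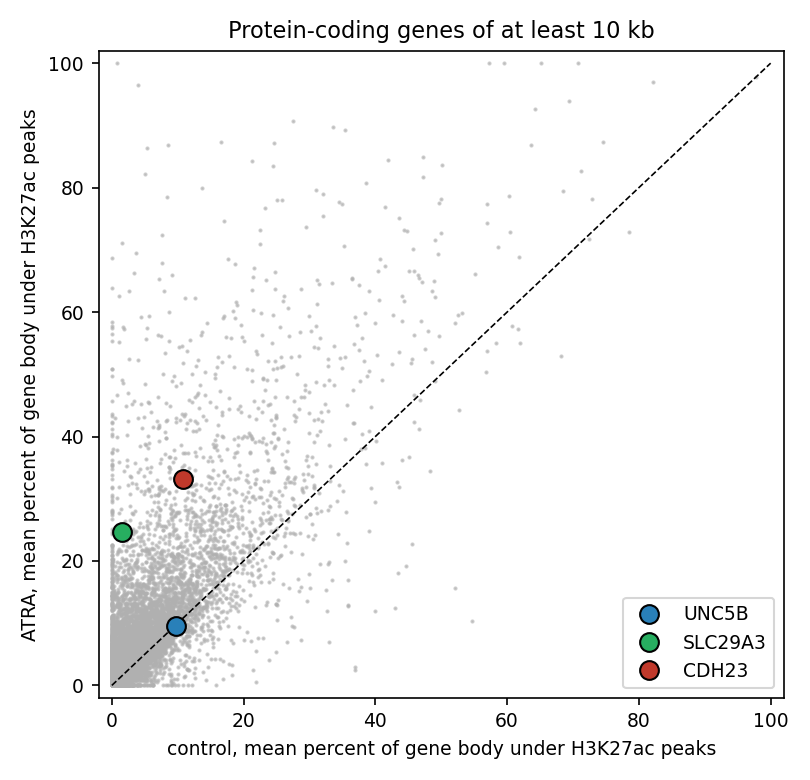
Mean percent of the gene body under H3K27ac peaks in the 2 ATRA libraries against that in the 2 control libraries, 1 gray point per protein-coding gene of at least 10 kb, with the line of equality dashed. SLC29A3 and CDH23 lie above the line, by 23.0 and 22.4 percentage points, and UNC5B lies on it.

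Among 14886 protein-coding genes with a body of at least 10 kb, the median difference in H3K27ac was 0.234 percentage points of the body and the mean 2.61. SLC29A3, at 23.0 points, ranked 364 and CDH23, at 22.4 points, ranked 384. UNC5B, at -0.0642 points, ranked 12578. By length gained, SLC29A3 ranked 266 and CDH23, with a body of 419028 bp, ranked 4. Those ranks are over all 20136 genes, so the 2 kinds of rank are not over the same set.

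The genes most like each member were found by the Euclidean distance over the 8 libraries of the percent of the gene body under peaks. For UNC5B they were RPTOR, TP73 and RAB6B, at 5.32, 5.36 and 6.11 percentage points. For SLC29A3 they were CD58, GNG2 and SMOX, at 6.86, 7.05 and 7.81 points. CD58, an adhesion ligand of lymphocytes, had 20.3% and 24.7% of its body under H3K27ac peaks in ATRA and 0.857% and 2.57% in control. SLC29A3 itself had 24.1% and 25.1% in ATRA and 2.81% and 0.418% in control. For CDH23 they were CUEDC1, WBP1L and RAPGEF1, at 7.95, 8.17 and 8.32 points, of which WBP1L lies elsewhere on chromosome 10.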

How the data were processed

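H3K4me3 and H3K27ac ChIP-seq of HL-60 cells was compared between 2 ATRA and 2 control libraries per mark. The authors removed adapters with cutadapt, mapped the trimmed reads on hg19 with Bowtie, then ran MACS2 on every library alone to obtain broad peaks, and whether input libraries entered the call is not given in the sources used here. The deposited files give each peak's position and, per the file format, a −log10 q. Its values correlated more with those of the next peak in the file (Spearman 0.409 to 0.660) than with the peak's own length (0.0765 to 0.116), so here the deposited −log10 q served for filtering and nothing else. The columns for fold enrichment and −log10 p held values these measures cannot take and were not used. The files hold no read depth, hence no counting intervals, and the precision is that of 2 libraries per group.

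The members and gene lists were chosen with earlier results of these data known. Length under peaks was summed per gene body (GENCODE release 44 on GRCh37), per 4001 bp around a start and per 20 kb bin with Python 3.11.15 and numpy 2.4.6, and the code was tested on simulated peaks. A call means that both ATRA libraries were above, or below, both control libraries. H3K4me3 was compared with an exact two-sided permutation test over libraries. TAD limits came from the study's list, and log2 ratios used a pseudocount of 1000 bp. The text names the members, each protein-coding gene of the window, the 3 genes closest to each member and up to 3 genes per list with the largest H3K27ac difference in either direction. Marker genes of the line were chosen after the other values were seen. Alternatives changed the −log10 q (at least 5), peak length (at least 1 kb), scaling, number of peaks, flanks (10 kb), promoter width (1 or 5 kb), starts used and libraries left out. Matches of 1 motif in the acetylated stretches are not reported here.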

Additional observations from a re-analysis of the deposited data

How the results depend on the processing

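The H3K27ac difference between ATRA and control stayed above 0 for SLC29A3, CDH23 and the window, in 7, 7 and 5 alternatives besides leaving out a library, and fell on either side of 0 for UNC5B. Each count includes the mean difference within replicate numbers, which equals the main one by construction. That for CDH23 also includes the setting without the spans of C10orf105 and VSIR (80763 bp), chosen after seeing the data. With a −log10 q of at least 5 the H3K27ac difference was 7598 bp for SLC29A3, 11151 bp for CDH23 and 20105 bp for the window. Scaled to the mean covered length it was -7761 bp for UNC5B, 10149 bp for SLC29A3, 40765 bp for CDH23 and 46826 bp for the window. For SLC29A3 it was 12182 bp with peaks of at least 1 kb, 9981.5 bp with the same number of the longest peaks in each library, 18903.5 bp with 10 kb on either side and, chosen after seeing the data, 6264.5 bp in the canonical transcript. The H3K4me3 difference at the UNC5B start turned to -267.5 bp with the −log10 q filter and with equal numbers of peaks, and to -165 bp with peaks of at least 1 kb. At the SLC29A3 start it was 65 bp with 1 kb on either side, and 1495 bp with 5 kb or with all annotated starts. Both latter settings gave 3302 and 3236 bp in ATRA and 2333 and 1215 bp in control (exact two-sided permutation test, p = 0.333). Over every annotated CDH23 start the H3K4me3 difference was -117 bp, from the start at 73472361. Leaving out 1 library gave -2824.5 to 2708.5 bp for H3K27ac over UNC5B, 13570 to 15058 bp over SLC29A3, 69359 to 118058 bp over CDH23 and 87220.5 to 138308 bp over the window. For H3K4me3 it gave -582.5 to 1039.5 bp at the UNC5B start (-24 bp without ATRA library 1), -44.5 to 1073.5 bp at the SLC29A3 start, 0 bp at the CDH23 start and 12003.5 to 20335.5 bp over the window. The cause was not tested, except that the filters and the left-out libraries hold fewer peaks or samples by construction.

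Deviations of libraries with the same replicate number correlated in 40 kb bins (Pearson 0.223 for H3K4me3 and 0.556 for H3K27ac), but with 2 pairs the numbers are not shown to pair the cultures. With the replicate block, the mean difference within replicate numbers equals the unpaired one by construction, at -58 bp for UNC5B, 14314 bp for SLC29A3, 93708.5 bp for CDH23 and 112764 bp for the window in H3K27ac, and 228.5, 514.5, 0 and 16169.5 bp in H3K4me3 at the UNC5B, SLC29A3 and CDH23 starts and over the window. The smallest exact p under the block is 0.5.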

Other observations

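Each library's window share of all length under H3K27ac peaks was 0.299% and 0.165% in ATRA and 0.212% and 0.0920% in control, so the shares overlap where the lengths do not. For H3K4me3 the shares were 0.0454% and 0.0445% in ATRA and 0.0270% and 0.0165% in control, and these do not overlap.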
